A study of Homo sapiens and Mus musculus with 21 samples.

Results

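The 10 genes CNOT1, CNOT2, CNOT3, CNOT4, CNOT6, CNOT6L, CNOT7, CNOT8, CNOT10 and CNOT11 encode subunits of the CCR4-NOT complex. They were taken as a listed set by symbol. All 10 were found among the 20056 protein-coding genes of the GRCh38 gene reference. RNA counts could be tied to 3 of them, CNOT1, CNOT6 and CNOT8, because the count tables carry Ensembl identifiers and the files pair a name with an identifier only in the authors' tables of classed genes. The RNA levels of the other 7 are not analysed here. The study measured 21 libraries, 2 of them of mouse embryonic fibroblasts and the others of PCIF1 knockout (KO) and wild-type (WT) cells. PCIF1 is the methyltransferase that makes m6Am, a methylated adenosine at the first transcribed base next to the cap. The groups used here, all HEK293T, a transformed human embryonic kidney line, were 2 KO and 1 WT miCLIP libraries, 3 KO and 2 WT input RNA libraries, and 3 KO and 2 WT libraries of ribosome-protected fragments. The deposited SLAM-seq ratios rest on 6 further libraries, KO and WT cells sampled during a uridine chase after 4-thiouridine labelling. There was 1 library per genotype at each of 0, 6 and 12 h. KO cells lacked PCIF1, and no other allele or agent is given in the labels, which do not say how many KO clones were used or whether replicates were separate cultures. The spread behind each p-value is thus that of these libraries, and it may be purely technical. The 2 miCLIP libraries of mouse embryonic fibroblasts were not used here, since no mouse gene spans were at hand.

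CCR4-NOT is the main cytoplasmic deadenylase: it shortens the poly(A) tail of mRNAs, the step that usually opens their decay. CNOT1 is the scaffold on which the other subunits assemble. CNOT2 and CNOT3 form a regulatory module, and CNOT10 with CNOT11 another. The nucleases belong to separate pairs of paralogs, CNOT6 with CNOT6L and CNOT7 with CNOT8, and a complex carries one of each pair. CNOT4 is a RING-type ubiquitin ligase that binds the human complex only loosely. The complex is also an arm of m6A biology, because the reader protein YTHDF2 binds CNOT1 and thereby brings methylated mRNAs to the deadenylases. The data below ask the reverse question, how the transcripts of the complex itself were methylated, and how they stood without PCIF1.

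The input libraries held 4511687 to 5842630 counts in KO and 5386307 and 5960674 counts in WT. The fragment table lists only 785 genes, over which the libraries held 46193 to 124580 counts in KO and 17665 and 61816 counts in WT. In either table the counts of any replicate pair varied beyond what sampling alone gives (chi-square over degrees of freedom 2.70 to 19.9). On the leading principal component of the input (52.6% of the variance) the KO libraries lay at 6.25 to 10.1, WT replicate 2 at 3.03 and WT replicate 1 at -29.0, far from all others. Each input result below rests in part on that library. The level of PCIF1 is not analysed here. Of 6 genes typical of this line, 3 and 5 had an m6A site in KO replicates 1 and 2 and 5 in WT, with 65, 82 and 83 sites in all, most of them in IRS4 (58, 60 and 69). The 6 fibroblast genes together had 0, 0 and 1 site and the 6 blood genes 0, 1 and 0.

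Regions of the authors' strict m6Am list lay at the starts of 3 of the 10 genes, CNOT1, CNOT3 and CNOT7, that is, within 50 nt of the annotated start and on its strand. Over all protein-coding genes the share was 8.89%, and it was 16.0% of those with an m6A site in WT. The region at CNOT1 (chr16:58629751-58629850, minus strand) had a score of 2.89, the region at CNOT3 (chr19:54137751-54137850, plus strand) 3.27, and the region at CNOT7 (chr8:17246801-17246900, minus strand) 3.17. Each covered the annotated start. These scores ranked 1190, 717 and 804 of 2360 regions, against a median score of 2.90, so CNOT1 sat at the middle of the list and CNOT3 and CNOT7 somewhat above it. The sources do not say against what the score was computed, and the single list has no replicate and no KO counterpart. The strand of CNOT7 is not in the reference used here, and its start was taken as the end of its span that matches the strand of the region.

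**Figure D1:**
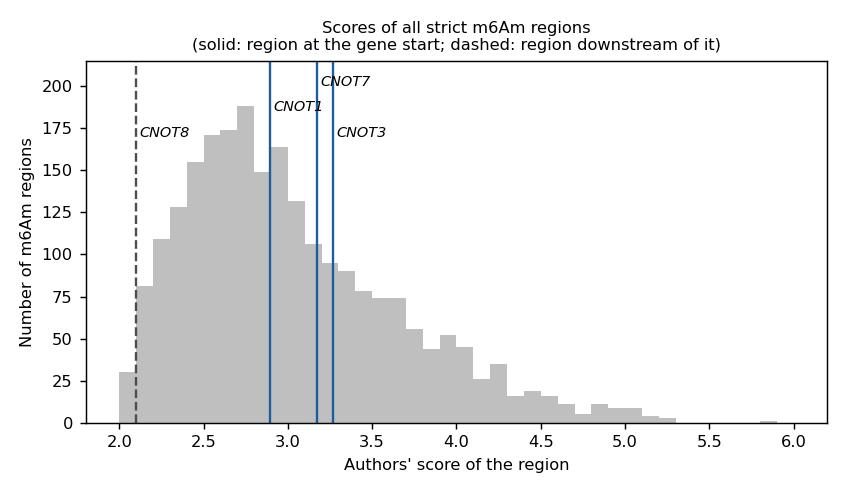
Number of regions (vertical axis) by the authors' score (horizontal axis) for all 2360 strict m6Am regions. Solid lines mark the regions at the starts of CNOT1 (2.89), CNOT7 (3.17) and CNOT3 (3.27), near the median of 2.90, and the dashed line marks the region 352 nt from the CNOT8 start (2.10).

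Because m6Am needs an adenosine as the first base, the start sequences are shown for the genes whose start the data bear on (RefSeq windows, GRCh38.p14; 30 bases before the start, the first transcribed base in capitals, 10 bases after it).
CNOT3, annotated start, chr19:54137732-54137772, plus strand: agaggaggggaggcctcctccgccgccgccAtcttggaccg
CNOT8, first annotated start, chr5:154858219-154858259, plus strand: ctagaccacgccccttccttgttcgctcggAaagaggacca
CNOT8, start furthest downstream, chr5:154858597-154858637, plus strand: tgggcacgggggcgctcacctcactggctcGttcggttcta
CNOT6, annotated start, chr5:180494349-180494389, plus strand: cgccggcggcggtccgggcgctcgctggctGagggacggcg
CNOT6, start used by the authors, chr5:180494369-180494409, plus strand: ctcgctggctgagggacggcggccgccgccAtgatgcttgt
CNOT11, annotated start, chr2:101252856-101252896, plus strand: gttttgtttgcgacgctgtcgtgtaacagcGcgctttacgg
The CNOT3 start lies inside its m6Am region and reads A after C. Among all 35116 windows 44.4% read A as the first base, and among the 1574 whose start lies inside a region 60.8% did.

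At CNOT8 the nearest region (chr5:154858601-154858700, score 2.10, rank 2329) lay 352 nt downstream of the first annotated start and 84 nt from a second one, which also reads A. It covered the start furthest downstream, which reads G. The authors class CNOT8 as an A start without m6Am, and the centre of their start window (154858249) is the first annotated start. At CNOT6 they also give A without m6Am. The centre of that window (180494399) lies 20 nt downstream of the annotated start, and it reads A where the annotated start reads G. Over 377 plus-strand windows of that table whose centre could be read, 356 (94.4%) had the classed base at the centre. The CNOT6 start shown above as used by the authors is this centre. It is inferred from that match. No region lay within 500 nt of the starts of CNOT2, CNOT4, CNOT6, CNOT6L, CNOT10 or CNOT11. The starts of CNOT4 and CNOT11 read G, and CNOT2 and CNOT6L have 3 annotated starts each, 1 of which reads A. CNOT1 and CNOT7 have no start window in the table used, and the only window of CNOT10 lies inside the gene, away from the start used here.

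m6A sites were listed in the spans of 9 of the 10 genes in KO replicate 1, 8 in KO replicate 2 and 9 in WT. The shares of all protein-coding genes with a site were 46.6%, 48.5% and 47.7%. That background was not matched for expression or span length, so the higher share here is not read as a trait of these genes. A site is a single adenosine in a DRACH motif (such as GGACT), called in each library from reads that carry a substitution there. The spans held 26 sites in KO replicate 1, 35 in KO replicate 2 and 36 in WT. These were 0.0638% (exact interval 0.0417 to 0.0934%), 0.0735% (0.0512 to 0.102%) and 0.0824% (0.0578 to 0.114%) of the 40768, 47644 and 43663 sites of the lists, and the intervals overlap. Among the genes of the complex with a site, the median number was 2, 5 and 4, beside a median of 3 among all protein-coding genes with a site in each library. With 1 WT library, no test between genotypes was made. The exact intervals cover counting error only. Those above treat each site as a separate draw, though sites cluster within genes and the lists share positions. Their overlap therefore does not show that the libraries are alike. The intervals of read shares below are too narrow if PCR copies of a molecule were counted more than once.

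The sites of these genes were thinly read. The median depth was 19.5 and 27 reads in KO replicates 1 and 2 and 20.5 in WT, against 37, 42 and 30 over the whole lists. No site had 10 substituted reads in any library. Over all 3 lists there were 74 positions, of which 5 (6.76%) were in all 3 lists, 13 in 2 and 56 (75.7%) in 1 alone. Of all 90876 listed positions 12.7% were in all 3 and 67.4% in 1. The 20 positions listed in WT alone had at most 3 substituted reads, and those listed in KO replicate 1 alone (17) or KO replicate 2 alone (19) at most 5. A position absent from a list may only have had too few reads there.

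CNOT1 held the most positions, 16, but 6 of them lie on the plus strand where its last part overlaps SETD6, a lysine methyltransferase gene. On its own strand CNOT1 had 3 and 4 sites in KO replicates 1 and 2 and 6 in WT. Its strongest site (chr16:58555369, motif GGACT) lies 67.8% of the way along the span. Substitutions there were in 7 of 174 reads (4.02%) in KO replicate 1, 4 of 158 (2.53%) in KO replicate 2 and 7 of 155 (4.52%) in WT. This was the most deeply read site of the set, and its share was the lowest of the 5 sites common to the lists in each library.

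Of the regulatory pair, CNOT2 had 3 and 5 sites in KO and 4 in WT, and 7 of its 8 positions crowd into the last 10% of the span. The strongest (chr12:70353997, GAACT), 996 nt before the end of the gene, had 9 of 80 reads substituted (11.3%) in KO replicate 1, 4 of 92 (4.35%) in KO replicate 2 and 7 of 62 (11.3%) in WT. CNOT3 had 2 sites in each KO library and none in WT. These were 4 different positions with 2 or 3 substituted reads of 11 to 18, and 2 of them also lie in another gene, so CNOT3 has an m6Am region at its start but little readable m6A.

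Among the nucleases, CNOT6 carried 4 and 5 sites in KO and 8 in WT, with 12 of its 13 positions in the last 10% of the span. Its strongest site (chr5:180574256, GAACA) had 4 of 43 reads substituted (9.30%) in KO replicate 1, 3 of 76 (3.95%) in KO replicate 2 and 5 of 63 (7.94%) in WT. The remaining position, 296 nt after the annotated start, was listed in WT alone, with 3 of 35 reads. Of the whole set it was the nearest to the annotated start of its own gene. Its paralog CNOT6L had no site in either KO list and 1 in WT (2 of 15 reads). CNOT7 had 2 and 5 sites in KO and 6 in WT, all on the minus strand, and 11 of its 12 positions were in a single list. Its strongest (chr8:17230632) had 3 of 32 reads in KO replicate 1 and 3 of 36 in WT, and was not listed in KO replicate 2. CNOT8 had 2 sites in each of the 3 libraries. Its strongest (chr5:154875495, TGACT) had 4 of 69 reads substituted (5.80%) in KO replicate 1, 3 of 62 (4.84%) in KO replicate 2 and 5 of 44 (11.4%) in WT. Reads of the paralogs could be shared between them or with pseudogenes, and how the authors placed such reads is not given in the sources used here.

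CNOT10 had 1 site in KO replicate 1, none in KO replicate 2 and 1 in WT, at different positions with 2 substituted reads each. CNOT11, its partner, had 2 and 3 sites in KO and 2 in WT, with 5 of 5 positions in the last 10% of the span. Its strongest (chr2:101269562, TGACT) had 7 of 122 reads (5.74%) in KO replicate 2 and 8 of 91 (8.79%) in WT, and was not listed in KO replicate 1. CNOT4, the ubiquitin ligase, had 5 sites in each of the 3 libraries and the site with the most substituted reads of the set, summed over the libraries. That site (chr7:135393970, GGACT), 78.3% along the span, had 7 of 53 reads (13.2%) in KO replicate 1, 9 of 54 (16.7%) in KO replicate 2 and 7 of 57 (12.3%) in WT. A further 3 CNOT4 positions lie at the end of the gene, the best of them (chr7:135362333, GGACT) with 2 of 9 reads in KO replicate 2 and 5 of 11 in WT.

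**Figure D2:**
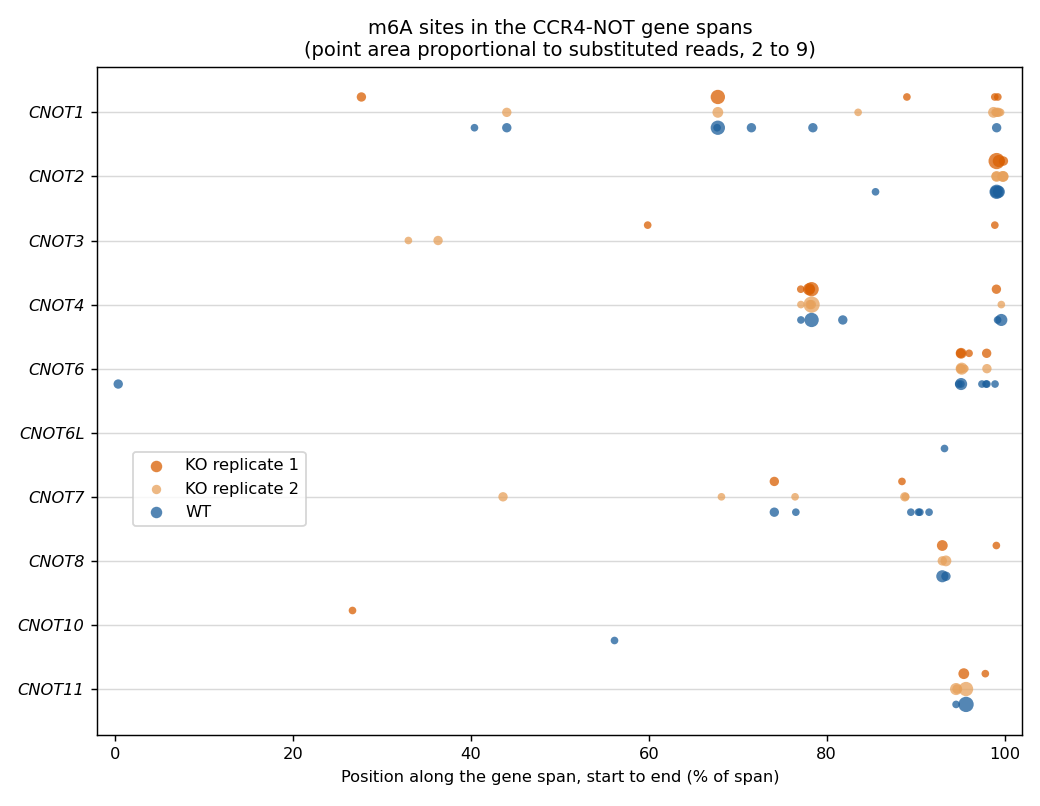
Position of each m6A site from the start to the end of the gene span (horizontal axis, % of span), with 1 row per gene and, within a row, KO replicate 1 at the top, KO replicate 2 in the middle and WT at the bottom; point area is proportional to the substituted reads. Most sites of CNOT2, CNOT6, CNOT8 and CNOT11 lie close to the end of the gene, those of CNOT1 and CNOT7 are spread out, and the plus-strand sites at the end of CNOT1 lie in SETD6.

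Along the spans, 15 of 26 sites (57.7%) in KO replicate 1, 21 of 35 (60%) in KO replicate 2 and 21 of 36 (58.3%) in WT lay in the last 10%. For all sites in protein-coding genes of known strand the shares were 43.2%, 42.5% and 41.8%. On the own strand of the genes 36 of 68 positions did. Spans include introns, so the last 10% is not a measure of the last exon. The GGAC core made up 5, 12 and 8 of the sites (19.2%, 34.3% and 22.2%), against 34.4%, 34.4% and 34.0% of the lists. None of the sites lay within 50 nt of the annotated start of the member gene whose span held it. The share over all listed sites is not given here, so this is not read as a trait of these genes.

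At the 5 positions common to the 3 lists, in CNOT1, CNOT2, CNOT4, CNOT6 and CNOT8, substitutions were in 31 of 419 reads in KO replicate 1 (7.40%, exact interval 5.08 to 10.3%), 23 of 442 in KO replicate 2 (5.20%, 3.33 to 7.71%) and 31 of 381 in WT (8.14%, 5.60 to 11.4%). The 3 intervals overlap, and the difference between genotypes was not tested. WT had the highest share and KO replicate 2 the lowest. The KO libraries lay further from each other than KO replicate 1 from WT. Over all 11576 positions common to the lists the shares were 6.43%, 6.30% and 6.46%. A position enters this comparison only if it was listed in all 3 libraries, and the smallest listed count was 2 substituted reads. The comparison is therefore blind to a full loss in KO. It is equally blind to a partial loss that takes a position off a KO list.

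**Figure D3:**
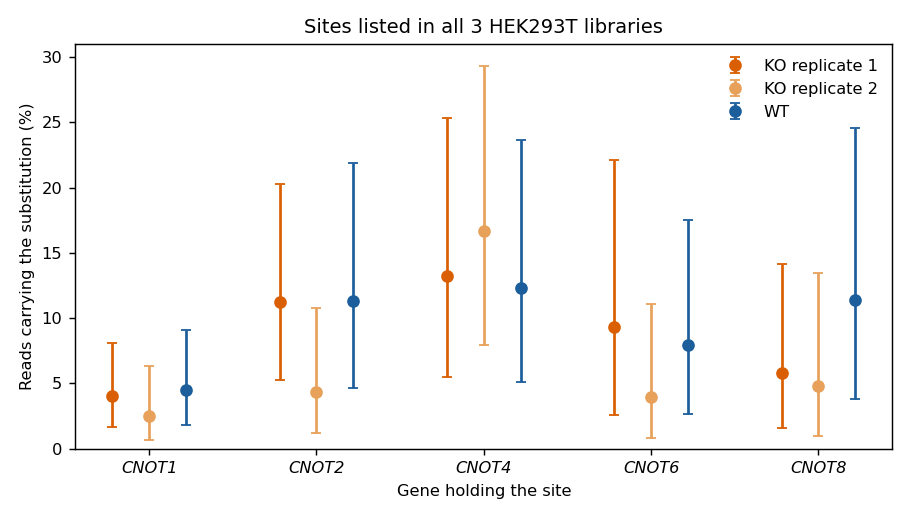
Share of reads carrying the substitution (vertical axis, %) at the 5 sites listed in all 3 libraries, with exact 95% binomial intervals, for KO replicate 1, KO replicate 2 and WT from left to right. At each site the 3 intervals overlap. The shares themselves, without their intervals, were 2.53 to 4.52% at CNOT1 and 12.3 to 16.7% at CNOT4.

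Input RNA of the 3 measured subunits did not pass the test between KO and WT. CNOT1 had 435, 427 and 400.3 CPM (counts scaled to the same library total) in KO replicates 1 to 3, against 579 and 391 CPM in WT replicates 1 and 2. The KO libraries lie close together and within the range of the WT libraries. The means were 421 ± 18.0 CPM in KO (SD, n = 3) and 485 ± 133 CPM in WT (SD, n = 2), a log2 fold change of -0.24 (SE 0.14), or 0.846-fold (interval 0.687 to 1.04; edgeR's quasi-likelihood test, adjusted p = 0.595). CNOT6 had 89.2, 86.5 and 74.0 CPM in KO, against 83.9 and 79.6 CPM in WT. These groups overlap too, with a ratio of 0.997 (interval 0.822 to 1.21; edgeR adjusted p = 0.993). CNOT8 had 70.7, 59.4 and 56.1 CPM in KO, against 73.6 and 50.1 CPM in WT, a ratio of 0.978 (interval 0.746 to 1.28; edgeR adjusted p = 0.967). Of all 14629 genes tested, 5 (0.0342%) were called, all lower in KO, and 0 of the 3 subunits were among them.

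The CNOT1 value turned on WT replicate 1. Without that library the log2 fold change was 0.097 (edgeR adjusted p = 0.995), and without WT replicate 2 it was -0.49 (edgeR adjusted p = 8.66e-06, 1 of 1912 genes called under that setting), each time against a lone WT library whose spread is assumed to be that of the KO libraries. CNOT8 moved in the same way, to 0.30 without WT replicate 1 (edgeR adjusted p = 0.834) and to -0.27 without WT replicate 2 (edgeR adjusted p = 0.282). CNOT6 stayed between -0.038 and 0.084 whichever library was left out. The 3 genes whose centred profiles over the 5 input libraries lay nearest to that of CNOT1 (Euclidean distance in log2 CPM 0.0425 to 0.0448, among 10157 genes with a mean of at least 10 CPM) carry identifiers that no file names.

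**Figure D4:**
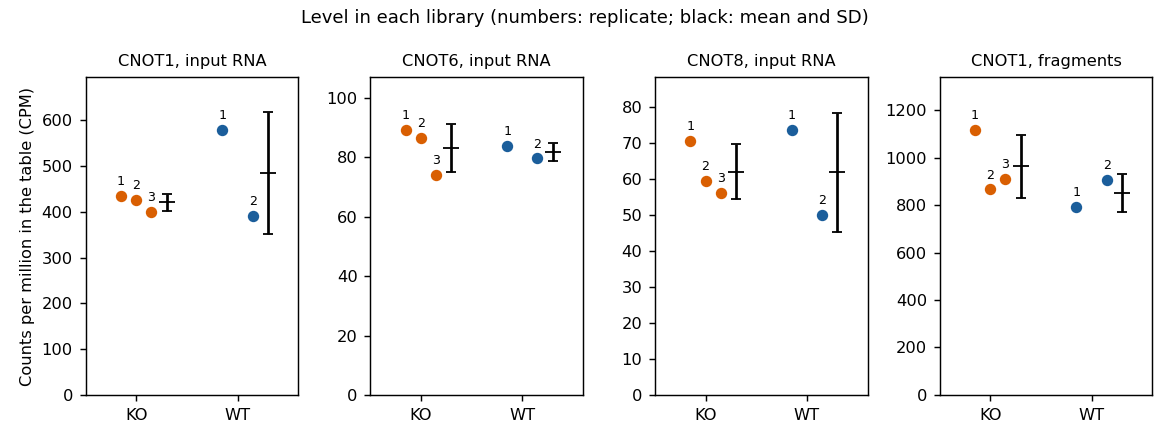
Level in each library (vertical axis, CPM of the table; numbers give the replicate) of CNOT1, CNOT6 and CNOT8 in input RNA and of CNOT1 among ribosome-protected fragments, KO left and WT right, with mean and SD in black. WT replicate 1 of the input is the highest CNOT1 library at 579 CPM, and the groups overlap in all 4 panels.

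**Figure D5:**
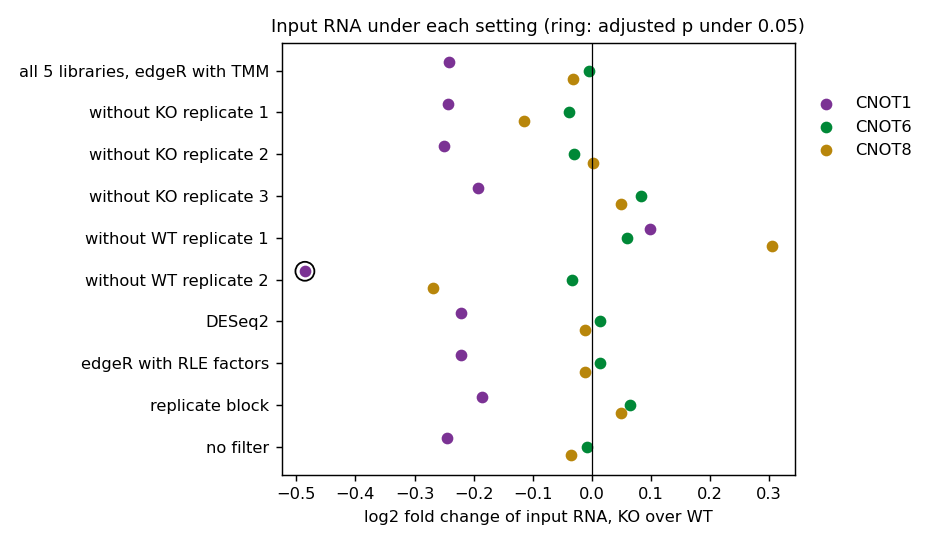
Log2 fold change of input RNA, KO over WT (horizontal axis), of CNOT1, CNOT6 and CNOT8 under each setting (vertical axis), with a ring where the adjusted p is under 0.05. CNOT1 ranges from -0.49 without WT replicate 2, its only ringed value, to 0.097 without WT replicate 1.

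CNOT1 was the only subunit of the 10 with an identified row in the fragment table. It had 139, 40 and 53 fragment counts in KO, against 14 and 56 in WT, or 1116, 866 and 909 CPM of the listed genes in KO, against 793 and 906 CPM in WT. KO replicate 2 and WT replicate 2 overlap, and the WT replicate 1 value rests on 14 counts. The fold was 1.16 (interval 0.754 to 1.78; edgeR adjusted p = 0.983), and 0.0% of the 785 genes were called (30 at an unadjusted p under 0.05, and 0 by DESeq2). Fragment CPM was also divided by the input CPM of the library with the same genotype and number. This pairing was assumed, and the main efficiency model below does not use it. The absolute size of the ratio means nothing, since the tables differ in their genes. It was 2.57, 2.03 and 2.27 in KO, against 1.37 and 2.31 in WT. The low WT replicate 1 ratio combines the highest input level with the fewest fragments.

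In the model over both kinds of library, the translational efficiency of CNOT1 had a KO over WT ratio of 1.39, with an interval of 0.896 to 2.16 that includes no change (log2 0.48, SE 0.30; edgeR adjusted p = 0.730). The log2 value was 0.095 without WT replicate 1 and 0.94 without WT replicate 2, neither of them called (edgeR adjusted p = 0.916 and 0.230). edgeR called 0.0% of the 785 genes (53 at an unadjusted p under 0.05), and DESeq2 called 2. In the authors' deposited table CNOT1 has a log2 fold change of 0.45 (SE 0.34, adjusted p = 0.763) and is classed as an m6Am start. DESeq2's interaction test on the same counts gave 0.45 as well. Of the 416 m6Am genes in the authors' deposited table, 90.9% have a lower value than CNOT1, and the median of that class is 0.032.

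For transcript stability, the authors' deposited SLAM-seq table gives KO over WT ratios of 0.676 for CNOT6 and 1.19 for CNOT8. Its median over 666 entries is 0.891, with quartiles at 0.652 and 1.18. CNOT6 thus lay inside the middle range of the authors' deposited table and CNOT8 just above it. Among the 198 entries with an A start in the authors' deposited table, 26.8% are lower than CNOT6 and 71.2% are lower than CNOT8, around a class median of 0.954. The quantity that was divided is not stated, no error is given, and the ratio of CNOT1 and of the other subunits was not analysed here.

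No gene of the partner lists that could be read passed the test in input RNA, which only 5 of all 14629 genes (0.0342%) passed. Of the 12 other deadenylases and poly(A)-binding proteins, 2 were tested in input RNA and 0 were called: PABPC1, the main cytoplasmic poly(A)-binding protein, had a log2 fold change of -0.18 (SE 0.12, edgeR adjusted p = 0.634) and PABPC4 -0.079 (SE 0.095, edgeR adjusted p = 0.826). Of the 19 proteins that recruit CCR4-NOT to mRNAs, 2 were tested and 0 called, the microRNA effectors TNRC6B (-0.41, SE 0.18, edgeR adjusted p = 0.531) and TNRC6C (-0.36, SE 0.17, edgeR adjusted p = 0.543). Of 9 decay partners, 2 were tested and 0 called, the helicase EIF4A2 (0.30, SE 0.12, edgeR adjusted p = 0.514) and the decapping enzyme DCP2 (0.44, SE 0.16, edgeR adjusted p = 0.513). The median log2 fold change of all tested genes was -0.018.

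m6A sites were listed in most of the partner genes as well, beside 46.6%, 48.5% and 47.7% of all protein-coding genes with a site and 8.89% with a region. Of the 19 recruiters 18, 19 and 18 had a site in KO replicates 1 and 2 and WT, with 94, 126 and 122 sites in all, and 0 had an m6Am region at the start. The 12 other deadenylases and poly(A)-binding proteins had 57, 62 and 56 sites and 1 region, at PABPN1. The 9 decay partners had 27, 30 and 27 sites and 2 regions, at DCP1A and LSM14A. CNOT9 and TNKS1BP1, further proteins of the complex, had 19, 25 and 24 sites together and 0 regions. Differences between these lists, or from all protein-coding genes, were not tested.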

How the data were processed

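The members and lists were chosen with earlier results of these data known. The authors deposited whole-number counts per Ensembl gene for input RNA and for 785 genes of ribosome-protected fragments. Their deposited efficiency table gives log2 fold changes, a test score, p-values and a mean normalized signal, with DESeq2's column names, and their deposited SLAM-seq table a KO over WT ratio. The deposited m6A lists give the count of substituted reads and the reads at each position, and the deposited m6Am list a score per region. Per the submitters' processing notes, BWA 0.7.17, STAR, bedtools, deepTools, GRCh38, hg38 and mm10 were used, without roles.

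The main test on the counts was edgeR 4.0.16 under R 4.3.3. It used TMM, filterByExpr on the input, a robust quasi-likelihood F test and Benjamini-Hochberg over all genes, with a threshold of 0.05. In simulated counts of a set spread, it found 62, 65 and 37 of 100 changes of log2 size 1 in input, fragments and efficiency. Of 100 changes of log2 size 2 it found 94, 99 and 99. It also called 5, 7 and 12 unchanged genes. Changes of log2 size 1 can thus be missed, most of all in efficiency. The simulation gave every gene and library the same spread, with no outlying library such as WT replicate 1 of the input. That spread was not compared with the spread of the data, so fewer changes may be found in these libraries. Efficiency was the interaction of genotype and library kind. Intervals of folds are 95% intervals of that fit, two-sided. DESeq2 1.42.0 was an alternative. Shares carry exact Clopper-Pearson intervals at 95%. A count of 3 is 0.503 to 0.665 CPM in the input and up to 170 CPM of the listed genes in the fragments. Sites were assigned to RefSeq spans on either strand. All 10 members are named, with at most 3 genes of each other list by smallest unadjusted p in the input.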

Additional observations from a re-analysis of the deposited data

How the results depend on the processing

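Signs of the small input values moved with the setting. Without 1 library at a time, the log2 fold change ranged from -0.49 to 0.097 for CNOT1, from -0.038 to 0.084 for CNOT6 and from -0.27 to 0.30 for CNOT8. Without WT replicate 1 all 3 were positive (0.097, 0.060 and 0.30), without KO replicate 3 CNOT6 and CNOT8 were (0.084 and 0.049), and without KO replicate 2 CNOT8 was (0.0020). CNOT6 was at 0.014 with DESeq2 or RLE factors. With the replicate number as a block CNOT6 was at 0.065 and CNOT8 at 0.049, and the block changed no call of a member. The count of called genes was 2 (without KO replicate 1) to 1912 (without WT replicate 2) in the input without 1 library, 15 with DESeq2, 3 with the block and 152 without the filter. It was 0 to 3 in the fragments without 1 library and 6 with the block, and in efficiency 0 to 14 without 1 library and 2 with DESeq2. The cause was not tested. Same-numbered KO and WT libraries correlated at 0.27 (number 1) and 0.012 (number 2). With 2 WT libraries the deviations are mirror images, so these values cannot decide whether the numbers pair the libraries, and the labels do not say. CNOT1 kept its sign in the fragments (0.12 to 0.39) and in efficiency (0.095 to 0.94). Asking for 5 substituted reads left 5 and 4 sites in KO and 9 in WT, by construction, and the gene's strand alone left 24, 31 and 35. Members with a region numbered 4 within 500 nt and 2 when only scores at or above the median count. The alternative that keeps exonic sites was not run, since no exon annotation was used here. No site had more than 9 substituted reads, which limits the precision of each share.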

Other observations

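CNOT1 is classed as m6Am in the authors' deposited table. Its start window there (chr16:58629805-58629966) holds the annotated start and overlaps the m6Am region. The centre of that window (58629886) lies 60 nt upstream of the annotated start and 36 nt outside the region. Which base of the window the authors took as the start was not settled for minus-strand genes.

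The lists shared part of their sites in these genes. Of the 36 WT sites in the 10 spans, 14 (38.9%) were listed in KO replicate 2 and 7 (19.4%) in KO replicate 1, beside 42.4% and 37.4% of all WT sites. In the reverse direction 40% of the KO replicate 2 sites and 26.9% of the KO replicate 1 sites were listed in WT, beside 38.9% and 40.1% of all sites of these lists. The KO lists shared 7 positions, 20% of those of KO replicate 2 and 26.9% of those of KO replicate 1, beside 37.6% and 43.9% over all sites. These differences were not tested.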
